A study of Mus musculus with 48 samples.

Results

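A set of 10 genes of protein folding and stress signalling was followed in mouse microglia after irradiation. They are the endoplasmic reticulum (ER) chaperones Hspa5, Hsp90b1, Calr and Pdia4, the unfolded protein response factors Xbp1 and Atf6b, and Atf4, Ddit3, Psat1 and Asns, which are linked to the integrated stress response. They were taken by gene symbol from a table of 48526 genes, in which each of the 10 has 1 row, and 9 of them are among the 10132 genes that passed the filter on low values. Asns did not pass.

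The study followed hippocampal microglia of C57BL/6 mice given whole brain X-rays, a single dose of 8 Gy, on postnatal day 21, or a sham procedure. Irradiated and sham animals were taken after 2 h, 6 h, 1 day and 1 week, 6 animals in each of the 8 groups, and each time had its own sham animals. After perfusion and mild enzymatic digestion of the hippocampus, cells were sorted by FACS for expression of Cx3cr1, the fractalkine receptor, which microglia carry. Each animal gave 1 bulk RNA library, and the kit named in the labels is the QIAseq FX single cell kit. Both arms thus share the strain, the sort and the digestion; no transgene is named in the labels, and the cells are those still present in the hippocampus at each time.

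Secreted and membrane proteins fold in the ER with the help of chaperones. When unfolded protein builds up, the sensors Ire1, Atf6 and Perk start the unfolded protein response: Ire1 splices Xbp1 mRNA, Atf6 is cleaved to a transcription factor, and both raise chaperone genes. Perk and 3 related kinases phosphorylate eIF2alpha, which lowers general translation and favours translation of Atf4, and Atf4 raises genes of amino acid supply and, with prolonged stress, Ddit3 (Chop). Splicing of Xbp1, cleavage of Atf6 and translation of Atf4 are not measured by gene-level RNA values.

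Values are RPKM, reads on a gene scaled to its span in kilobases and to the reads on all genes, recomputed with each library's own total. The span includes introns, so levels are compared within a gene only. A change is the irradiated mean less the sham mean of log2(RPKM + 1), with its standard error after ±, and this scale understates changes of low genes. RPKM means carry SDs over 6 animals. A gene was called where its adjusted p in limma, a linear model fitted over all 10132 genes, was under 0.05. Libraries held 175382 to 3856777 reads on genes, with 3 libraries under 1000000, among them sham 1 day library 6 with the fewest. The 11 microglial markers summed to 35621 to 56858 RPM (reads scaled to the library total only) in the 48 libraries. Marker lists of neurons, astrocytes, oligodendrocytes, endothelial cells and perivascular macrophages summed to at most 365, 72.0, 306, 115 and 234 RPM. In bulk libraries, fewer cells of a type and less RNA per cell cannot be told apart.

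The promoters of 3 chaperone genes hold the ER stress response element, the site known to be bound by Atf6 and Xbp1 together with NF-Y, and are shown so that the letters stand beside the values of these genes. The letters CCAAT, any 9 bases, then CCACG were searched on both strands in the 250 bases before each RefSeq gene start (build GRCm38.p6), and matches are in capitals. Hspa5 (chr2:34771840-34772089, plus strand) has 1 match, Hsp90b1 (chr10:86705445-86705694, minus strand) has 2 that do not overlap, and Calr (chr8:84846932-84847181, minus strand) has 1.
Hspa5: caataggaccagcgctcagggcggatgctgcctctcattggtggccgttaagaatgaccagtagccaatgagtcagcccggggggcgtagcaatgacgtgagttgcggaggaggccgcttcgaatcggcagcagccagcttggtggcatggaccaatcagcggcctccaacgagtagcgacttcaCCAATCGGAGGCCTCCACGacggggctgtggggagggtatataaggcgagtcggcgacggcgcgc
Hsp90b1: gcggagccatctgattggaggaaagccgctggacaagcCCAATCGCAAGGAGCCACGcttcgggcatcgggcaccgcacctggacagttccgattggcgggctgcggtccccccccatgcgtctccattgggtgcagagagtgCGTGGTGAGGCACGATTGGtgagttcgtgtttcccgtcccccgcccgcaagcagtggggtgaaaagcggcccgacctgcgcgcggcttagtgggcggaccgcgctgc
Calr: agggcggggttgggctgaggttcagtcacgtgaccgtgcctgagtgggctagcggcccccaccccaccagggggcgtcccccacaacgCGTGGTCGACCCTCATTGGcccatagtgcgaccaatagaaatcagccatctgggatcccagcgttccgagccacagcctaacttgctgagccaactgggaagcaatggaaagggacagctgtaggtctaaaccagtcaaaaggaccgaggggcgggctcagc

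The element was found in 37 of 32851 RefSeq promoters of the same length, or 0.113%. It was found in none of the windows of the other 7 genes, and the shorter letters TGACGTGG, a core of the Xbp1 and Atf6 site, were found in none of the 10 (185 of all promoters, 0.563%). The Atf4 composite letters TGATGNAA stood in the Asns window and in none of the other 9 genes (1134 of all promoters, 3.45%). Of the tested genes, 5668 had a promoter in the RefSeq table and 11 of these held the ER stress response element. At 1 day 4 of the 11 rose, namely Hsp90b1, Calr, Canx and Pdia6, and 0 fell, against 216 that rose and 103 that fell among the 5668. At 6 h 1 of the 11 rose (Canx) and 4 fell (Hspa5, Hsp90b1, Dnajc3 and Hnrnpa3), against 939 and 568. These 11 include Hspa5, Hsp90b1 and Calr themselves: of the other 8, 2 rose and 0 fell at 1 day with a median change of 0.15, and 1 rose and 2 fell at 6 h with a median of -0.21. A match describes letters only, and binding was not measured.

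In short, Hsp90b1, Calr and Psat1 rose at 1 day, and Atf4 was not called at any time. Hspa5, Hsp90b1 and Xbp1 fell at 6 h in calls that were not made with sham libraries 4 to 6 alone. Atf6b fell at 1 week in a call that held in 6 of 12 fits with 1 library left out. At 2 h 0 of the 9 tested genes were called, where 8.62% of all genes were (4.6% higher and 4.02% lower). One gene of the 9 (Psat1) had an unadjusted p under 0.05 at 2 h, and limma-voom on the recovered reads also called 0. At 6 h 3 of the 9 were called, all lower, where 20.9% of all genes were called, 12.9% higher and 8% lower. At 1 day 3 of the 9 were called, all higher, where 4.29% of all genes were called, 2.9% higher and 1.39% lower; Psat1 passed the filter through its irradiated 1 day libraries, so it had to differ there and its call adds nothing to that count. At 1 week 1 of the 9 was called, where 3.54% of all genes were, 2.03% higher and 1.51% lower. The share of reads on mt-Rnr2, a mitochondrial ribosomal RNA, also differed between arms: it was 2.84% to 9.02% in sham and 5.86% to 14.1% in irradiated libraries at 2 h, 2.79% to 6.81% and 2.12% to 3.98% at 6 h, 1.14% to 4.37% and 0.892% to 2.61% at 1 day, and 1.17% to 2.07% and 2.29% to 4.11%, without overlap, at 1 week. Its part in these results was not tested.

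**Figure D1:**
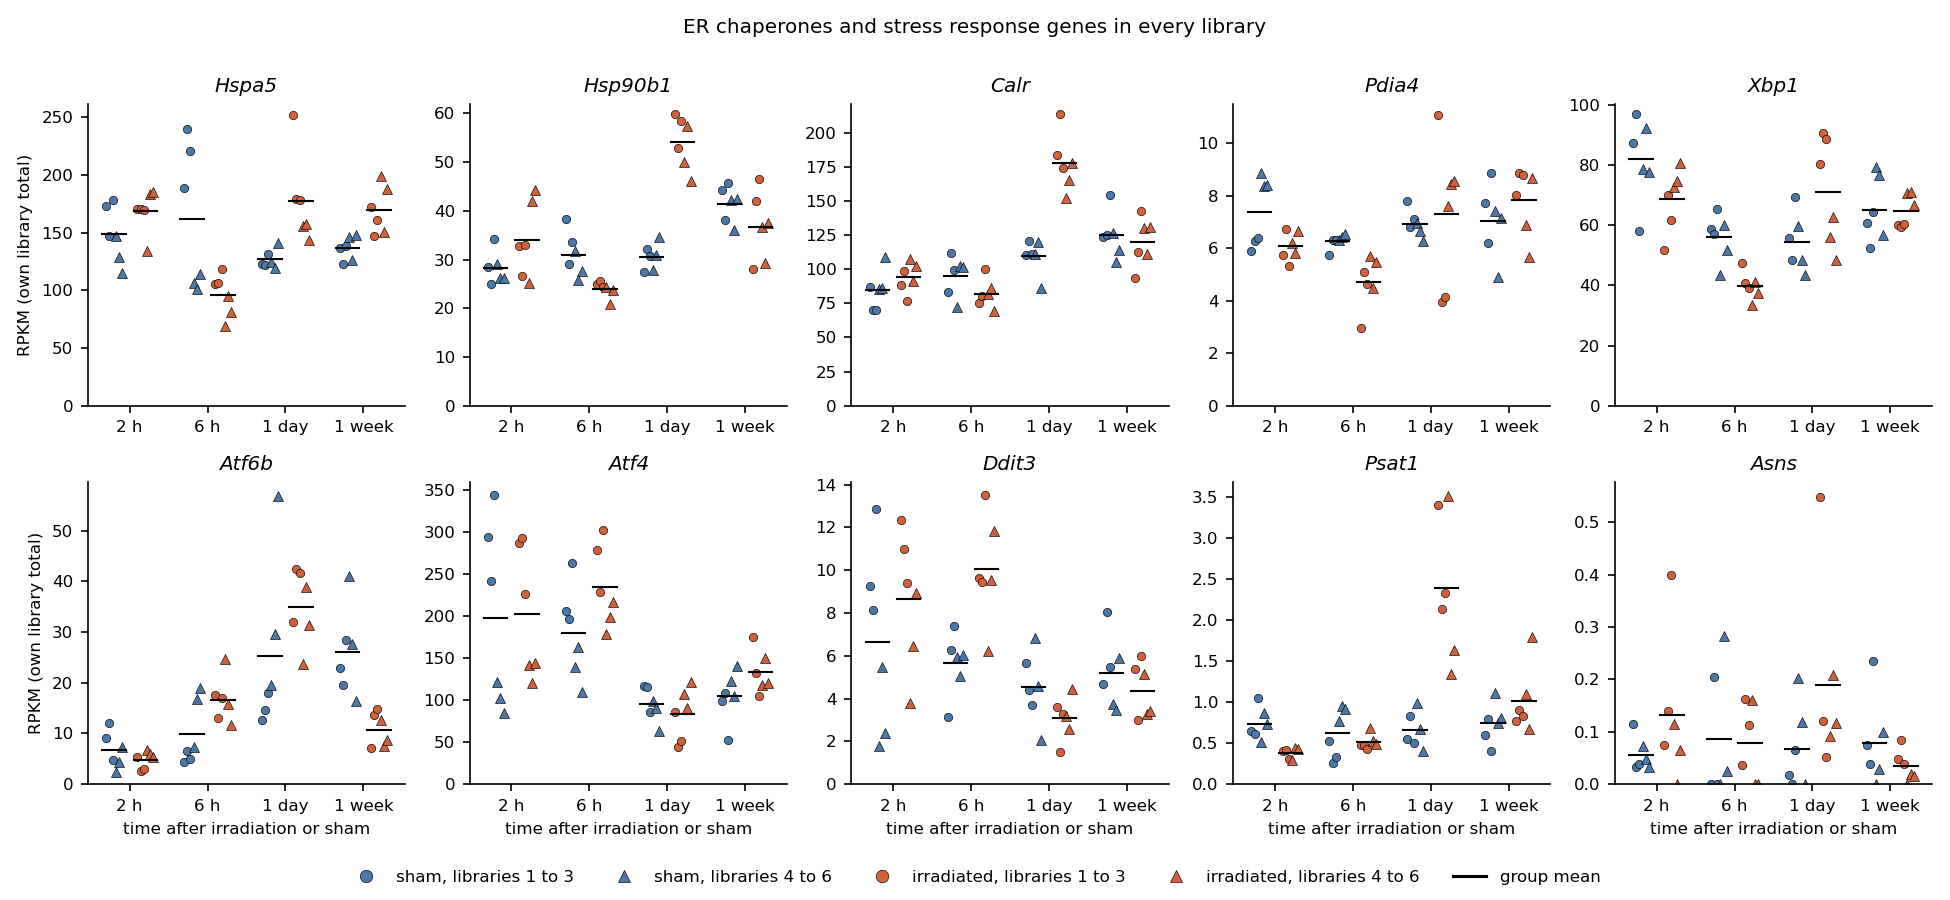
RPKM of each of the 10 genes in every library (y axis, linear, from 0) at 4 times (x axis) in sham (blue) and irradiated (orange) animals, with circles for libraries numbered 1 to 3, triangles for libraries 4 to 6 and bars for means of 6. The 6 irradiated 1 day libraries lie above all sham 1 day libraries for Hspa5, Hsp90b1, Calr and Psat1, while Atf4 at 2 h splits by library number in both arms.

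Hsp90b1, which encodes Grp94, the ER member of the Hsp90 family, showed the clearest rise of the chaperones. In sham animals at 1 day it ran from 27.4 to 34.7 RPKM with a median of 30.8, and in irradiated animals from 46.02 to 59.9 with a median of 55.1. All 6 irradiated libraries were thus above all 6 sham libraries, which was so in either direction for 2.98% of all genes at 1 day. The mean went from 30.6 ± 2.72 to 54.1 ± 5.44 RPKM (SD, n = 6 each), 1.77-fold, and the log2 change was 0.80 ± 0.12 (limma, adjusted p = 5.32e-06). The call held in 12 of 12 fits that left out 1 library of that time, with changes of 0.77 to 0.84. Genes that overlap its span drew few reads, 287 at most over all libraries against 58233 for Hsp90b1.

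The same gene was lower in irradiated animals at 6 h, at 20.9 to 25.6 RPKM with a median of 24.4, than in sham animals, at 25.7 to 38.3 with a median of 30.4. The groups did not overlap, though the highest irradiated and the lowest sham library lay side by side. Its change was -0.35 ± 0.12 (limma, adjusted p = 0.0303), 0.773-fold. The call was lost on leaving out sham library 1 (adjusted p = 0.101), 3 (0.0711) or 4 (0.0567) or irradiated library 5 (0.0738), and with sham libraries 4 to 6 alone the change was -0.23 (0.426). At 2 h and 1 week the changes were 0.24 ± 0.12 (limma, adjusted p = 0.258) and -0.19 ± 0.12 (0.407), and the groups overlapped.

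Calr encodes calreticulin, a calcium-binding lectin chaperone for glycoproteins. At 1 day it ran from 86.3 to 120.9 RPKM with a median of 111 in sham animals and from 152 to 214 with a median of 176 in irradiated animals. The groups did not overlap, and the lowest sham value came from the library with the fewest reads, in which Calr had 77 reads. The mean rose from 109.9 ± 12.4 to 178 ± 20.8 RPKM, 1.62-fold, with a log2 change of 0.69 ± 0.12 (limma, adjusted p = 6.19e-05). Without the 3 libraries under 1000000 reads the change was 0.62 ± 0.12 (limma, adjusted p = 0.00033). At 2 h, 6 h and 1 week the changes were 0.16, -0.20 and -0.06, with adjusted p of 0.517, 0.23 and 0.849 in limma. The 6 h change was called in 1 of 14 alternatives, with the GC and length trend removed (-0.38, adjusted p = 0.0239).

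Hspa5 encodes BiP, the Hsp70 chaperone of the ER that also holds the 3 sensors in check. At 1 day its 6 irradiated libraries, 144 to 252 RPKM with a median of 168, all lay above the 6 sham libraries, 119 to 141 with a median of 124. The highest of them, library 1, stood well apart from the next at 179. The mean was 127 ± 8.11 in sham and 178 ± 39.0 RPKM in irradiated animals, 1.40-fold, but the change of 0.46 ± 0.16 did not pass the test (limma, adjusted p = 0.1). The test pools the spread of log2 values over the 8 groups, and in RPKM sham 6 h had the largest SD of Hspa5, 62.2. Hspa5 was called at 1 day in 2 of 11 alternatives, with a replicate block and with a term for library numbers. It was not called with the 1 day libraries fitted alone, without the 6 h groups. The part of the 6 h spread in this result was not tested.

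In those 6 h groups Hspa5 fell with irradiation, by the test over all 6 sham animals. Sham libraries 1, 2 and 3 held 189, 239.8 and 221 RPKM, and sham libraries 4, 5 and 6 held 106, 101 and 114. Irradiated libraries ran from 69.4 to 119 with a median of 100.1, so all of them lay below the first 3 sham libraries. Against sham libraries 4 to 6, 1 irradiated library lay above all 3, 2 within their range and 3 below, and irradiated libraries 4 to 6 were all below. The 9 immediate early genes that mark handling of cells split in the same way, at 9267 to 9639 RPM in sham libraries 1 to 3 and 4257 to 5171 in libraries 4 to 6, and their part in the Hspa5 level was not tested. The change was -0.68 ± 0.16 (limma, adjusted p = 0.00191), and it was -0.18 ± 0.15 with sham libraries 4 to 6 alone (adjusted p = 0.581) and -0.18 ± 0.17 with libraries 5 and 6 alone (0.878). Within libraries numbered 1 to 3 the irradiated mean was 0.51 times the sham mean, and within libraries 4 to 6 it was 0.764 times. With a term for library numbers 1 to 3 or 4 to 6 at each time, Hspa5 was called at 1 day as well, with the same change of 0.46 ± 0.11 (limma, adjusted p = 0.00711). At 2 h and 1 week its changes were 0.20 (adjusted p = 0.568) and 0.31 (0.305), and 5 of 6 irradiated libraries at 1 week lay above all sham libraries.

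Pdia4, a protein disulfide isomerase, was not called at any time in the test over all libraries. At 6 h the sham libraries lay within 5.76 to 6.53 RPKM with a median of 6.33 and the irradiated libraries from 2.95 to 5.71 with a median of 4.86, without overlap, which was so for 7.85% of all genes. Its change there was -0.37 ± 0.15 (limma, adjusted p = 0.0831), and Pdia4 was called in 2 of 14 alternatives, with median-of-ratios scaling and with the GC and length trend removed (-0.45, adjusted p = 0.0353). At 1 day the irradiated libraries were split, with 3.94 and 4.14 RPKM in libraries 2 and 3 and 11.1 in library 1, around a sham range of 6.27 to 7.80, and the change was -0.01 ± 0.15 (adjusted p = 0.995).

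**Figure D2:**
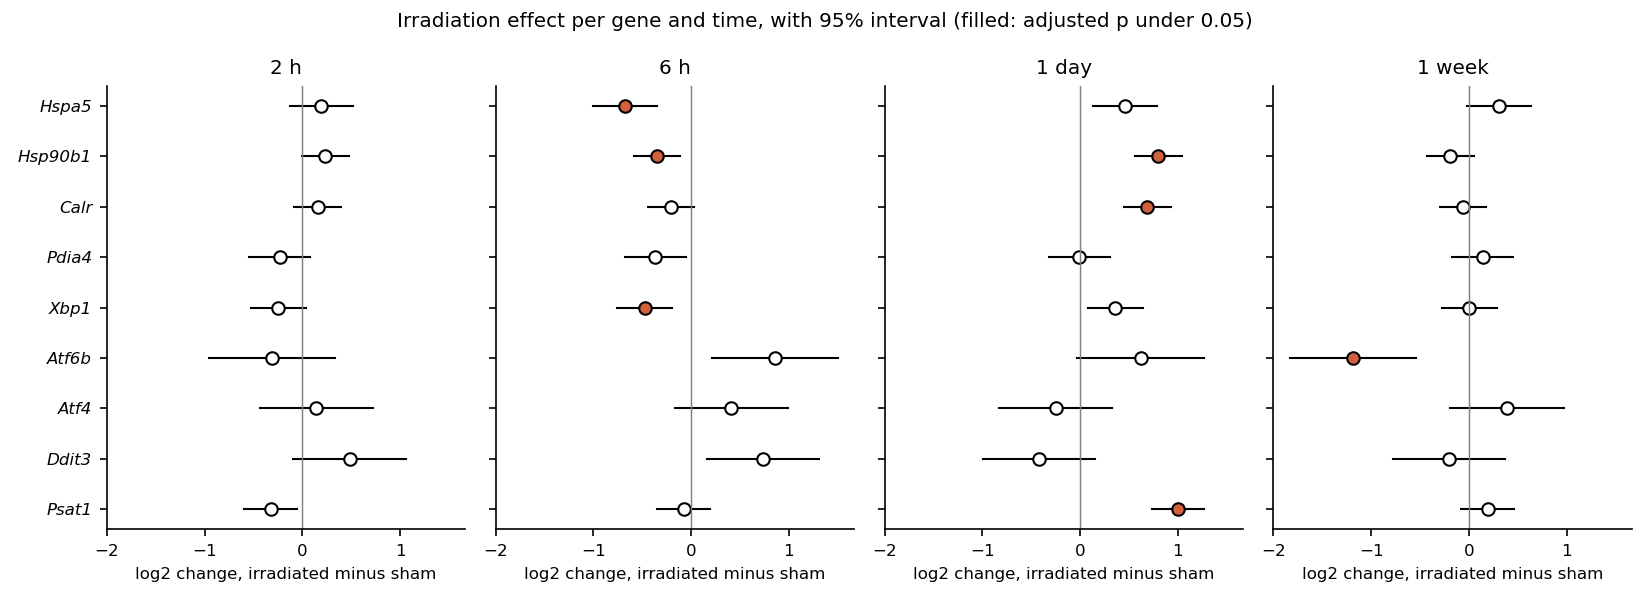
Log2 change of the 9 tested genes, irradiated minus sham (x axis), at each time (4 panels), with points for the estimate, lines for the 95% interval and filled points for genes called in limma. At 1 day Hsp90b1 (0.80), Calr (0.69) and Psat1 (1.00) are filled and positive, and at 6 h Hspa5 (-0.68), Hsp90b1 (-0.35) and Xbp1 (-0.48) are filled and negative.

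Other ER chaperones and folding enzymes moved the same way at 1 day. Of 25 listed genes 22 were tested. At 1 day 9 rose and 0 fell, where 2.9% of all genes were called higher and 1.39% lower. Of the 22 changes 21 were positive, and the median change was 0.34 against 0 over all genes. P4hb, a protein disulfide isomerase, went from 84.3 to 119 RPKM (0.49 ± 0.09, limma, adjusted p = 0.00027), and Pdia6, another, from 10.8 to 16.4 (0.56 ± 0.11, adjusted p = 0.000327). Sdf2l1, a partner of BiP, went from 45.2 to 107 RPKM (1.22 ± 0.24, limma, adjusted p = 0.000668). Pdia3, which works with calreticulin, went from 27.9 to 48.3 RPKM (0.78 ± 0.16, adjusted p = 0.000805). For these 4 genes every irradiated library exceeded every sham library, and groups were without overlap in either direction for 2.98% of all genes. The other 5 that rose were Canx, Uggt1, Dnajb11, Manf and Erp44, and of these the calls of Manf and Erp44 held in 7 and 4 of 12 fits with 1 library left out. Without the libraries under 1000000 reads the same 9 rose, and with 1 library of that time left out 6 to 9 rose and 0 fell. The 6 came without sham library 2, irradiated library 1 or irradiated library 3. With the replicate block or with the GC and length trend removed 7 rose and 0 fell, Manf and Erp44 being lost. With the 1 day libraries fitted alone Canx, Uggt1, Dnajb11, Manf and Erp44 were not called.

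At 6 h the same list split. Of its 22 genes 5 rose and 4 fell, where 20.9% of all genes were called, and the median was -0.08 against 0.08 over all genes. With 1 library of that time left out 2 to 5 rose and 0 to 5 fell, with 3 and 0 without sham library 2 and 2 and 5 without sham library 4. Among the risers, Erp29 went from 7.96 to 11.5 RPKM (0.50 ± 0.12, limma, adjusted p = 0.00181), and Canx (calnexin) from 16.2 to 23.1 (0.50 ± 0.13, adjusted p = 0.00513), with no overlap for Canx. Pdia3 rose from 15.3 to 21.7 RPKM (0.52 ± 0.16, adjusted p = 0.0149), and Txndc5 and P4hb also rose, in calls that held in 5 and 2 of 12 fits with 1 library left out. Dnajb9, an Xbp1 target and co-chaperone of BiP, fell from 14.0 to 8.06 RPKM (-0.68 ± 0.21, limma, adjusted p = 0.0182), and Hyou1, Tmx1 and Dnajc3 also fell, in calls that held in 8, 7 and 5 of the 12 fits. With sham libraries 4 to 6 alone 0 of the 22 rose and 1 fell, and with libraries 5 and 6 alone 0 were called. The 1 that fell, Creld1, was none of the 9 genes above. Of the 22 changes 10 were positive with all sham libraries, 7 with libraries 4 to 6 and 3 with libraries 5 and 6, where those of P4hb and Txndc5 turned negative (lowest -0.07 and -0.01). P4hb was negative with the GC and length trend removed as well. Without the libraries under 1000000 reads 3 rose and 4 fell. At 2 h 0 of 22 were called in limma (4 at an unadjusted p under 0.05, 0 in voom), with P4hb at 72.0 and 80.4 RPKM and Fkbp2 at 22.9 and 37.5 in sham and irradiated animals. At 1 week Canx fell from 23.1 to 16.8 RPKM (-0.46 ± 0.13, limma, adjusted p = 0.0361). No other was called in limma, where 3.54% of all genes were. At that time 7 of the 22 had an unadjusted p under 0.05. Voom called 4, with Canx, Dnajb11 and Pdia3 lower and Pdia6 higher, and Pdia6 also rose without the libraries under 1000000 reads. The Canx call held in 5 of 12 fits with 1 library left out (not without sham library 1, 3 or 4 or irradiated library 1, 4, 5 or 6). It was not made with the replicate block.

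**Figure D3:**
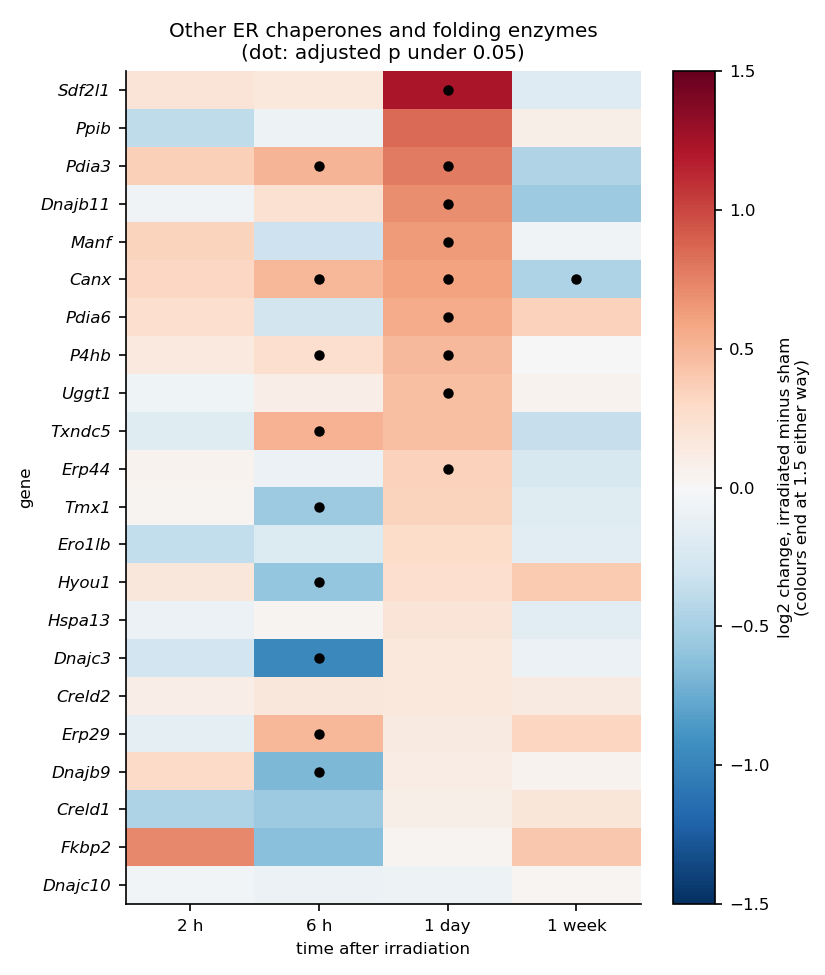
Log2 change, irradiated minus sham, of the 22 tested genes of the ER chaperone list (rows, ordered by the change at 1 day) at 4 times (columns), with a dot where the gene was called in limma. At 1 day 9 genes carry a dot and all are red, and at 6 h 5 called genes are red and 4 are blue.

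Genes of ER-associated degradation, which returns misfolded proteins to the proteasome, changed singly. Of 17 listed genes 15 were tested, and 3, 1, 1 and 2 were called from 2 h to 1 week, where 8.62%, 20.9%, 4.29% and 3.54% of all genes were. At 2 h Herpud1, a known target of Atf4 and Atf6, rose from 29.8 to 63.0 RPKM (1.16 ± 0.19, limma, adjusted p = 2.97e-05), while Ube2j1 fell from 11.5 to 7.09 (-0.60 ± 0.13, adjusted p = 0.000905) and Edem2 from 5.40 to 3.26 (-0.57 ± 0.17, adjusted p = 0.0295). The Edem2 call held in 6 of 12 fits with 1 library left out (not without sham library 1, 2 or 5 or irradiated library 2, 3 or 5). At 6 h Sel1l, the scaffold of the Hrd1 ligase, fell from 6.70 to 4.53 RPKM (-0.46 ± 0.12, adjusted p = 0.00501). That call was not made with sham libraries 4 to 6 alone. With 1 library of that time left out 0 to 4 rose, 4 without sham library 6, and 1 to 2 fell. At 1 day Edem1, an Xbp1 target that draws mannose-trimmed glycoproteins into degradation, rose from 12.7 to 18.8 RPKM (0.52 ± 0.10, limma, adjusted p = 0.000295) with no overlap between groups. At 1 week Ube2j1 fell from 9.72 to 5.62 RPKM (-0.70 ± 0.13, adjusted p = 0.000767), with all irradiated libraries below all sham libraries, and Derl2 fell from 10.7 to 6.35 (-0.67 ± 0.20, adjusted p = 0.0445). The Derl2 call held in 3 of 12 fits with 1 library left out (without sham library 6 or irradiated library 2 or 3), and was not made with the replicate block, with the GC and length trend removed or with no filter beyond a value above 0. The list's medians were -0.06, 0.11, 0.15 and 0.03 from 2 h to 1 week, against -0.01, 0.08, 0 and 0.05 over all genes.

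Xbp1, the transcription factor spliced by Ire1, fell at 6 h. Sham libraries ran from 43.6 to 65.4 RPKM with a median of 57.8, and irradiated libraries from 33.4 to 47.4 with a median of 39.99. Of the 6 irradiated libraries 5 were below every sham library. The mean went from 56.1 ± 7.55 to 39.9 ± 4.61 RPKM, 0.712-fold, with a change of -0.48 ± 0.14 (limma, adjusted p = 0.0114). The call held in 12 of 12 fits that left out 1 library. With sham libraries 5 and 6 alone the change had the same size, -0.48 ± 0.20, and did not pass (adjusted p = 0.323), and with libraries 4 to 6 alone it was -0.36 ± 0.17 (0.257). At 1 day Xbp1 was at 54.3 ± 9.42 in sham and 71.1 ± 17.8 RPKM in irradiated animals (0.36 ± 0.14, limma, adjusted p = 0.154), with irradiated libraries 1 to 3 at 80.3 to 90.6 and libraries 4 to 6 at 48.3 to 62.9. It was called there without irradiated library 6 (0.46, adjusted p = 0.0422). At 2 h and 1 week the changes were -0.25 (adjusted p = 0.332) and 0.01 (0.994). The values sum spliced and unspliced transcripts.

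Atf6b, a paralogue of Atf6, fell at 1 week. Sham libraries at 1 week ran from 16.4 to 41.0 RPKM with a median of 25.2, and irradiated libraries from 7.07 to 14.9 with a median of 10.7. The groups did not overlap, which was so for 3.18% of all genes. The mean went from 26.0 ± 8.68 to 10.8 ± 3.35 RPKM, 0.415-fold, with a change of -1.19 ± 0.32 (limma, adjusted p = 0.0283). The call was lost in 6 of 12 fits with 1 library left out (sham 3, 4 or 5, irradiated 1, 5 or 6), with changes of -1.30 to -1.05 and adjusted p up to 0.098, and with a replicate block. In sham animals the mean was 6.65 RPKM at 2 h, 9.84 at 6 h, 25.2 at 1 day and 26.0 at 1 week, a difference over the 4 times that passed the F test of limma (adjusted p = 1.66e-05). At 6 h its change of 0.86 ± 0.32 lay at the threshold (limma, adjusted p = 0.0504), with sham libraries 1 to 4 at 4.37 to 7.41 RPKM, sham libraries 5 and 6 at 16.7 and 19.0 and irradiated libraries at 11.6 to 24.7; with sham libraries 5 and 6 alone the change was -0.13. It was called at 6 h without sham library 5 (1.04, adjusted p = 0.0165), sham library 6 (1.07, 0.0115) or irradiated library 6 (0.94, 0.0436). At 2 h and 1 day its changes were -0.31 (adjusted p = 0.669) and 0.62 (0.349), and voom called it at 1 day (0.86, adjusted p = 0.0407).

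Among the other sensors and partners of these factors 1 of 7 tested genes was called at 2 h and 2 at 6 h, where 8.62% and 20.9% of all genes were. The list holds 14 genes, of which 7 passed the filter. At 2 h Nfyb, a subunit of NF-Y, rose from 3.27 to 6.63 RPKM (0.85 ± 0.19, limma, adjusted p = 0.00168). At 6 h Mbtps1, the site-1 protease that cleaves Atf6, fell from 2.35 to 1.51 RPKM (-0.42 ± 0.14, adjusted p = 0.0232), and Creb3, an ER-bound transcription factor, rose from 23.7 to 34.2 (0.54 ± 0.19, adjusted p = 0.0393). These calls, and those at 6 h in the amino acid, tRNA synthetase and heat shock lists, used all 6 sham libraries. With sham libraries 4 to 6 alone 574 genes in all were called at 6 h, against 2120. At 1 day and 1 week 0 of 7 were called in limma, with 2 at an unadjusted p under 0.05 at each time and 1 and 0 called in voom. The members with the highest RPKM at both times, a rank that also depends on span, were Tmbim6 and Creb3. Tmbim6 was at 44.6 and 57.2 RPKM in sham and irradiated animals at 1 day and 44.7 and 36.1 at 1 week. Creb3 was at 24.5 and 31.8 and then at 28.2 and 30.6.

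Atf4, the transcription factor of the integrated stress response, was not called at any time, and at 2 h its libraries differed by number more than by arm. At 2 h sham libraries 1 to 3 held 242 to 344 RPKM and libraries 4 to 6 held 85.3 to 121. Irradiated libraries 1 to 3 held 227 to 293 and libraries 4 to 6 held 120.4 to 145. The means of the 2 sets thus differed 2.85-fold in sham and 1.98-fold in irradiated animals, while the means of the 2 arms were 198 and 202 RPKM (0.14 ± 0.29, limma, adjusted p = 0.855). The 9 immediate early genes of the list kept for handling of cells moved with it: at 2 h they summed to 13825 to 19064 RPM in sham libraries 1 to 3 and 3711 to 4239 in libraries 4 to 6, and to 8081 to 12210 and 3791 to 5678 in irradiated ones. Their part in the Atf4 level was not tested, and the labels say nothing of what the numbers stand for.

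At 6 h Atf4 was at 180.0 RPKM in the median sham and 223 in the median irradiated library (0.41 ± 0.29, limma, adjusted p = 0.335). At 1 day the medians were 94.8 and 88.8 RPKM (-0.25 ± 0.29, adjusted p = 0.756), and at 1 week 106 and 126 (0.39 ± 0.29, adjusted p = 0.505), with overlap at each time. Its sham level differed over the 4 times (limma F test, adjusted p = 0.0181), being highest at 2 h and 6 h. None of the 9 immediate early genes was called at any time. From 2 h to 1 week 0, 1, 0 and 1 of them had an unadjusted p under 0.05, and voom called 1, at 1 week. By RPKM, a rank that also depends on span, Fos came first. It was at 782 and 686 RPKM in sham and irradiated animals at 2 h and 660 and 409 at 6 h. At 1 day Fos was at 222 and 217, and at 1 week at 332 and 419. Next came Egr1 at 2 h (689 and 452) and 6 h (466 and 319), Dusp1 at 1 day (184 and 216) and Jun at 1 week (330 and 237).

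Ddit3 encodes Chop, a transcription factor that Atf4 raises and that is known for its part in cell death under prolonged stress. At 6 h 5 of 6 irradiated libraries lay above all sham libraries, at 6.20 to 13.5 RPKM with a median of 9.59 against 3.14 to 7.40 with a median of 5.99. The mean went from 5.64 ± 1.44 to 10.03 ± 2.48 RPKM, 1.78-fold, with a change of 0.73 ± 0.28 that just missed the threshold (limma, adjusted p = 0.0605). It was called with the term for library numbers (adjusted p = 0.021), in voom (0.0289) and without irradiated library 4 (0.85, 0.0391). At 1 day Ddit3 was at 4.54 ± 1.64 and 3.09 ± 0.99 RPKM (-0.42 ± 0.28, limma, adjusted p = 0.532), and at 2 h and 1 week its changes were 0.48 and -0.21, with adjusted p of 0.365 and 0.764. Its gene span overlaps the antisense gene Mars by 68 bases, and whether reads were counted by strand is not given in the sources used here.

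**Figure D4:**
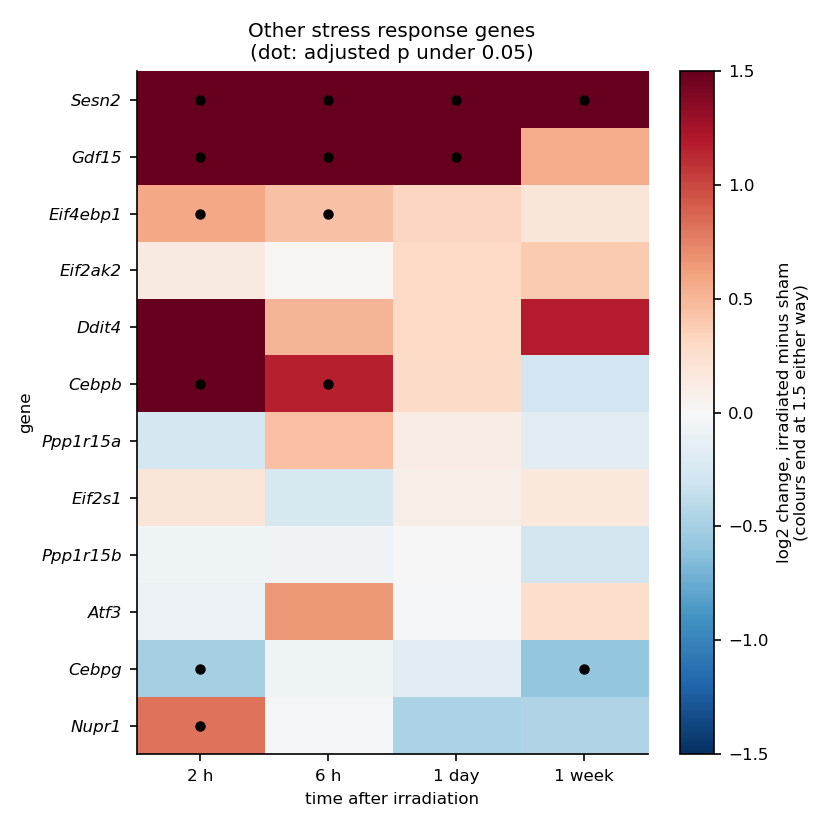
Log2 change, irradiated minus sham, of the 12 tested genes of the stress response list (rows, ordered by the change at 1 day) at 4 times (columns), with a dot where the gene was called in limma and colours that end at 1.5. Sesn2 carries a dot at all 4 times and Gdf15 at the first 3, while most other genes carry none.

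Other genes of the integrated stress response moved early and in part. Of 20 listed genes 12 were tested. At 2 h 5 rose and 1 fell, where 8.62% of all genes were called, with a median of 0.38 against -0.01 over all genes. With 1 library of that time left out 3 to 6 rose, 3 without irradiated library 3, and 0 to 1 fell. At 6 h 4 rose and 0 fell, where 12.9% of all genes were called higher and 8% lower (median 0.45 against 0.08). At 1 day 2 rose and 0 fell, where 2.9% were higher and 1.39% lower (0.19 against 0). At 1 week 1 rose and 1 fell, where 2.03% were higher and 1.51% lower (0.17 against 0.05). Sesn2, a stress protein that is a target of both Atf4 and p53, rose from 1.75 to 34.3 RPKM at 2 h (3.69 ± 0.25, limma, adjusted p = 1.2e-15) and was still higher at 1 week, at 2.78 and 9.95 (1.54 ± 0.25, adjusted p = 0.000133). Gdf15, a secreted cytokine that is likewise a target of both, rose from 0.449 to 48.8 RPKM at 6 h (5.11 ± 0.35, adjusted p = 2.13e-15).

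These 2 genes made all of the calls at 1 day, where Sesn2 went from 3.13 to 20.5 RPKM (2.42 ± 0.25, limma, adjusted p = 1.05e-09) and Gdf15 from 0.355 to 3.58 (1.70 ± 0.35, adjusted p = 0.001). At 2 h the risers also held Cebpb, from 6.42 to 36.9 RPKM (1.89 ± 0.36, adjusted p = 0.000186), and Eif4ebp1, a brake on translation, from 0.257 to 0.92 (0.58 ± 0.13, adjusted p = 0.00247), and Nupr1; Cebpg, a partner of Atf4, fell (-0.50, adjusted p = 0.0362). That fall held in 5 of 12 fits with 1 library left out and was not called in voom, with median-of-ratios scaling, the replicate block or the GC and length trend removed, and the Nupr1 call held in 9 of 12. At 6 h Cebpb rose from 6.35 to 15.4 RPKM (1.16 ± 0.36, limma, adjusted p = 0.016) and Eif4ebp1 from 0.348 to 0.822 (0.44 ± 0.13, adjusted p = 0.0164), and at 1 week Cebpg fell from 11.4 to 7.36 (-0.58 ± 0.16, adjusted p = 0.0279). The fall at 1 week held in 6 of 12 fits (not without sham library 2 or 5 or irradiated library 1, 4, 5 or 6). With sham 6 h libraries 4 to 6 alone 2 of the 12 rose at 6 h and 0 fell. Eif4ebp1 passed the filter largely through irradiated libraries, so it had to be higher there and its calls add nothing to these counts. It was tested in 9 of 12 fits with 1 library left out at 2 h and in 10 at 6 h. Without the libraries under 1000000 reads it was not tested. Of 11 genes 4 then rose and 1 fell at 2 h, and 3 rose and 0 fell at 6 h. Gdf15 too had sham means under the filter's 1 RPKM at 6 h and 1 day. It may thus also have passed largely through irradiated libraries, in which case its calls add nothing to the counts either. With no filter beyond a value above 0 in 6 libraries, Eif4ebp1 and Gdf15 still rose at 2 h and 6 h. In that setting Gdf15 rose at 1 day as well.

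Psat1, the aminotransferase of serine synthesis and a known Atf4 target, had the largest change of the 9 tested genes at 1 day. Sham libraries ran from 0.401 to 0.99 RPKM with a median of 0.61, and irradiated libraries from 1.35 to 3.52 with a median of 2.23. Every irradiated library was above every sham library, with 132 to 278 reads against 3 to 104. The mean went from 0.657 ± 0.219 to 2.40 ± 0.896 RPKM, 3.65-fold, with a change of 1.00 ± 0.13 (limma, adjusted p = 5.98e-07). Psat1 reached the filter's 1 RPKM in 10 libraries, 6 of them the irradiated 1 day libraries. With a filter of at least 10 reads in 6 libraries, which 46 of the 48 libraries meet for this gene, it was called as well.

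At 2 h Psat1 was lower in every irradiated library, at 0.293 to 0.44 RPKM with a median of 0.409, than in any sham library, at 0.519 to 1.06 with a median of 0.688. Groups without overlap made up 4.5% of all genes at 2 h. The change was -0.33 ± 0.13 on the scale with a pseudocount of 1 and did not pass (limma, adjusted p = 0.134), and with a pseudocount of 0.1 it was -0.78 and passed (0.0478). Its reads in irradiated 2 h libraries were 7 to 47. At 6 h the change was -0.08 (adjusted p = 0.737) and at 1 week 0.19 (0.47).

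Asns, the asparagine synthetase and another Atf4 target, was at the edge of detection. It had 174 reads over the 48 libraries, 0 to 19 in each and 0 in 10 of them, and no library reached 1 RPKM. The highest values were 0.549 RPKM in irradiated 1 day library 1 and 0.398 in irradiated 2 h library 3. The medians of the 8 groups lay between 0.013 and 0.119 RPKM, and no difference could be assessed at this depth.

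The wider set of amino acid genes was mostly too low to test. Of 11 other genes of amino acid synthesis 5 were tested. At each of 2 h, 6 h and 1 day 1 rose, where 8.62%, 20.9% and 4.29% of all genes were called. Mthfd2, a mitochondrial folate enzyme, rose from 0.497 to 1.53 RPKM at 2 h (0.70 ± 0.19, limma, adjusted p = 0.0104). Its sham mean was under the filter's 1 RPKM, so it may have passed through irradiated libraries. In that case its call adds nothing to that count. Got1, an aspartate aminotransferase, rose from 2.73 to 6.68 RPKM at 6 h (1.06 ± 0.17, adjusted p = 1.65e-05) and from 2.74 to 4.95 at 1 day (0.68 ± 0.17, adjusted p = 0.0128). At 1 week 0 of 5 were called in limma, 0 at an unadjusted p under 0.05 and 0 in voom, with Shmt2 at 4.87 and 5.95 RPKM and Got1 at 2.19 and 2.43.

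Amino acid transporters were called at 2 h and 6 h. Of 9 listed genes 4 were tested. At 2 h 1 rose and 0 fell, and at 6 h 2 rose and 1 fell, where 8.62% and 20.9% of all genes were called. Slc7a5 rose from 1.43 to 2.80 RPKM at 2 h (0.56 ± 0.18, limma, adjusted p = 0.0477) and from 1.83 to 3.26 at 6 h (0.62 ± 0.18, adjusted p = 0.0127). Slc3a2, its partner in the same exchanger, rose from 11.1 to 22.6 RPKM at 6 h (1.04 ± 0.16, adjusted p = 8.78e-06), while Slc38a2 fell from 19.5 to 11.7 (-0.69 ± 0.21, adjusted p = 0.0125). At 1 day Slc3a2, at 18.6 and 27.7 RPKM, had all 6 irradiated above all 6 sham libraries and an adjusted p of 0.0524 in limma, and Slc38a2 was at 11.2 and 10.6. Of the 4 genes, 0 were called at 1 day (1 at an unadjusted p under 0.05, 1 in voom) and 0 at 1 week (0 and 0), when Slc3a2 was at 16.8 and 17.2 RPKM and Slc38a2 at 10.6 and 12.7.

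Of 20 aminoacyl-tRNA synthetases, which charge tRNAs and many of which are known Atf4 targets, 19 were tested. At 2 h 3 rose and 0 fell, where 8.62% of all genes were called: Cars from 0.882 to 1.74 RPKM (0.55 ± 0.16, limma, adjusted p = 0.0169), Iars from 1.35 to 2.12 (0.44 ± 0.13, adjusted p = 0.0304) and Vars from 1.59 to 3.16 (0.66 ± 0.20, adjusted p = 0.0314). At 6 h 5 of the 19 were called, where 20.9% of all genes were: 4 rose, among them Eprs (0.38 ± 0.10, adjusted p = 0.00709), Rars (0.45 ± 0.13, 0.0105) and Farsa (0.54 ± 0.19, 0.0309), and Nars fell from 10.4 to 5.75 RPKM (-0.76 ± 0.15, 0.000308). At 1 day and 1 week 0 of 19 were called in limma or in voom, with 5 at an unadjusted p under 0.05 at each time; Qars was at 5.90 and 6.89 RPKM at 1 day and 7.11 and 10.2 at 1 week, and Nars at 6.35 and 4.79 and then 6.24 and 6.88.

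Cytosolic heat shock proteins, the chaperones outside the ER, did not share the rise at 1 day in these counts. Of 18 listed genes 16 were tested and 0 were called at 1 day in limma (3 at an unadjusted p under 0.05, 0 in voom), where 4.29% of all genes were called. Their median was -0.25 with 4 of 16 positive, against a median of 0.34 for the ER list. The difference between the 2 lists was not tested. Hsp90ab1 was at 131 and 148 RPKM and Hspa1a at 64.8 and 46.02 in sham and irradiated animals at 1 day. At 6 h 2 of the 16 fell and 0 rose, where 20.9% of all genes were called. Hsph1 fell from 4.58 to 0.938 RPKM (-1.26 ± 0.27, limma, adjusted p = 0.000739) and Hspa8 from 104 to 55.6 (-0.75 ± 0.23, adjusted p = 0.0166). At 2 h and 1 week 0 of 16 were called in limma (3 and 1 at an unadjusted p under 0.05, 0 and 0 in voom), with Hsp90ab1 at 93.2 and 79.5 RPKM at 2 h and 164 and 137 at 1 week, Hspa8 at 75.1 and 76.3 at 2 h, and Hspa1a at 94.1 and 102 at 1 week.

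The irradiation effect itself differed between times for 6 of the 9 genes in the F test over the 4 times, where 19.3% of all genes were called. These were Hsp90b1 (limma, adjusted p = 8.95e-06), Psat1 (9.21e-06), Calr (0.00063), Hspa5 (0.0011), Atf6b (0.00288) and Xbp1 (0.0103). From 6 h to 1 day the effect rose for 5 of the 9, where 4.38% of all genes were called, 1.71% higher and 2.67% lower, namely Hsp90b1 by 1.15 ± 0.17 (adjusted p = 4.66e-05), Hspa5 by 1.14 ± 0.23 (0.00196), Psat1 by 1.08 ± 0.19 (0.000575), Calr by 0.89 ± 0.17 (0.000956) and Xbp1 by 0.84 ± 0.20 (0.00953). With sham 6 h libraries 4 to 6 alone, Hsp90b1, Calr and Psat1 kept this call and Hspa5 (0.64, adjusted p = 0.112) and Xbp1 (0.73, 0.132) did not. These comparisons share the 1 day or the 6 h animals with those above. Psat1, which passed the filter through its irradiated 1 day libraries, had to differ at that time, so its calls here and from 1 day to 1 week add nothing to the counts: 5 of the other 8 genes were called in the F test, 4 of 8 from 6 h to 1 day and 3 of 8 from 1 day to 1 week.

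From 2 h to 6 h the effect fell for 2 of the 9, where 9.28% of all genes were called, 5.56% higher and 3.72% lower: Hspa5 (-0.87 ± 0.23, limma, adjusted p = 0.0113) and Hsp90b1 (-0.59 ± 0.17, 0.0213). With sham 6 h libraries 4 to 6 alone neither was called, and Hsp90b1 was also lost without sham 6 h library 1 (-0.52, adjusted p = 0.0515). Atf6b was gained (1.17 with all libraries, adjusted p = 0.0952) without sham 2 h library 4 or sham 6 h library 5 or 6. From 1 day to 1 week it fell for 4 of the 9, where 5.43% of all genes were called, 2.54% higher and 2.89% lower: Hsp90b1 (-0.99 ± 0.17, adjusted p = 0.000196), Calr (-0.75 ± 0.17, 0.00432), Psat1 (-0.81 ± 0.19, 0.00684) and Atf6b (-1.81 ± 0.45, 0.0131). All 4 calls held in 24 of 24 fits that left out 1 library of those times. Hspa5 did not pass here (-0.15 ± 0.23, adjusted p = 0.758).

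Sham animals alone differed over time for 5 of the 9 genes, where 21.1% of all genes were called. Hsp90b1 went from a mean of 28.2 RPKM at 2 h to 41.5 at 1 week (limma F test, adjusted p = 0.00302) and Calr from 84.8 to 125 (0.00203). Xbp1 was at 81.9 RPKM at 2 h, 56.1 at 6 h, 54.3 at 1 day and 65.1 at 1 week (limma F test, adjusted p = 0.00532). The other 2 were Atf6b and Atf4, given above.

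At 1 day, where Hsp90b1 and Calr rose, the marker lists of other cells gave low sums. Microglial markers summed to 43916 to 53040 RPM in sham and 37897 to 46733 in irradiated libraries. Of the 11, 4 fell and 0 rose, where 1.39% of all genes were called lower and 2.9% higher. The 7 markers of B and plasma cells, which are rich in ER chaperones, summed to 33.0 to 77.4 and 26.0 to 46.7 RPM, with Jchain at 0 in both arms. The 7 monocyte and neutrophil markers summed to 12.9 to 51.3 RPM in sham libraries, with a median of 19.0, and to 25.1 to 91.9 in irradiated libraries, with a median of 47.5. Of the 2 that were tested Plac8 rose (0.79 ± 0.21, limma, adjusted p = 0.0156) and Ccr2 did not pass (-0.04). Ly6c2 had reads in irradiated libraries only, and S100a8, S100a9, Ngp and Retnlg were at 0 in both arms. The part of such cells in the rise of Hsp90b1 and Calr was not tested.

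By the Pearson correlation of the 8 group means of log2(RPKM + 1), the genes most like Hspa5 outside the 10 were Pds5a (0.94), Tmed2 (0.94) and Bbs10 (0.90). The genes most like Atf4 were Atf3 (0.98), Dyrk2 (0.97) and Clcn7 (0.97). These are descriptions over 8 points that share the libraries.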

How the data were processed

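Gene values were measured by bulk RNA sequencing of sorted microglia in 48 libraries. The submitters' processing notes name STAR 2.6.1d, featureCounts 1.5.1, FastQC 0.11.8 and bcl2fastq 2.20.0, and the builds mm10 and GRCm38; annotation and strand setting are not given in the sources used here. The deposited values are RPKM made by the authors. Checked on the file, each nonzero value equals whole reads, to 0.001 reads, over the gene span and a library total, and for only 2.05% was that total the library's own. Whole reads were recovered for 100% of the 719081 values above 0 with Python 3.11.15, and RPKM was recomputed with each library's own total. Every per-sample column of the table was used.

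Genes with at least 1 RPKM in at least 6 libraries were kept. On log2(RPKM + 1), limma 3.58.1 (R 4.3.3) fitted 8 group means, with eBayes with trend and robust, 40 residual degrees of freedom, two-sided tests and Benjamini-Hochberg adjustment over all tested genes. The recovery and the test were checked on simulated data. Depth per library is given above. Labels do not say that numbers shared by a sham and an irradiated library mark a pair, so no block was used. Alternatives were other pseudocounts, filters, scaling, limma-voom, a GC and length correction, time points fitted alone, a replicate block, values as deposited, and left-out libraries. A term for library numbers, sham 6 h libraries 4 to 6 alone, and list counts without doubted libraries were chosen after seeing the data. Named are all 10 genes and, per list and time, up to 4 called genes with the smallest adjusted p, or, where none was called, up to 2 with the highest mean; further called genes are named only to complete a count. Members and lists were chosen with earlier results of these data known. Animals are separate per the labels.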

Additional observations from a re-analysis of the deposited data

Results flagged for a closer look

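Dixon's test of the highest or lowest of 6 libraries marked 6 of 80 groups, and chance marks about 1 in 20. Hspa5 was at 134 RPKM in irradiated 2 h library 4 (others 170.0 to 185) and at 252 in irradiated 1 day library 1 (others 144 to 179). Calr was at 86.3 RPKM in sham 1 day library 6 (others 110.2 to 121), the library with the fewest reads. Pdia4 was at 5.76 RPKM in sham 6 h library 1 (others 6.31 to 6.53). Asns was at 0.398 RPKM in irradiated 2 h library 3 and at 0.549 in irradiated 1 day library 1.

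The irradiation effect differed between adjacent times by the contrast itself (limma, adjusted p under 0.05) in 11 cases, as log2 differences of the effect. From 2 h to 6 h these were Hspa5 (-0.87) and Hsp90b1 (-0.59). From 6 h to 1 day they were Hspa5 (1.14), Hsp90b1 (1.15), Calr (0.89), Xbp1 (0.84) and Psat1 (1.08). From 1 day to 1 week they were Hsp90b1 (-0.99), Calr (-0.75), Atf6b (-1.81) and Psat1 (-0.81).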

How the results depend on the processing

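None of the calls on the 9 genes changed direction under the alternatives run. Of the single-gene calls at one time, Hsp90b1, Calr and Psat1 at 1 day held in 10 of 11 alternatives, the exception being the values as deposited, where libraries are divided by totals of other libraries. With deposited values the genes called numbered 52, 64, 39 and 11 from 2 h to 1 week, 3, 0 and 9 for the changes between times, 16 for the F test and 670 for the sham F test; of the 9 genes 0 were called in every one of these but the sham test, with 1. At 6 h the genes of the 9 called numbered 5 in voom and 5 with the term for library numbers (Atf6b and Ddit3 added), and 0 with sham 6 h libraries 5 and 6 alone or 4 to 6 alone; fewer sham samples also lower power. Those sham sets gave 213 and 574 genes in all at 6 h, 86 and 161 for 2 h to 6 h (0 and 0 of the 9), 32 and 93 for 6 h to 1 day (3 and 3 of the 9), and 845 and 1036 for the F test, while sham libraries 1 to 4 alone gave 1981, 1428 and 2935 for the last 3. With a pseudocount of 0.1, 1 of the 9 was called at 2 h (Psat1). Voom called 709 genes at 1 week and 1065 from 1 day to 1 week, and 874 were called there without libraries under 1000000 reads. Time points fitted alone gave 513 genes at 2 h and 259 at 1 day. With the GC and length trend removed, 592 genes and 1 of the 9 were called from 2 h to 6 h and 175 genes from 6 h to 1 day, and the higher share of calls went from 61.7% to 48.2% at 6 h, 57.4% to 42.5% at 1 week, 59.9% to 47.6% from 2 h to 6 h and 39.0% to 53.1% from 6 h to 1 day. The higher share at 1 day, 67.6%, was 57.5% in voom and 78.8% with that time alone, and from 6 h to 1 day it was 28.4% in voom. The cause of these shifts was not tested.

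With 1 library left out, genes called ran from 721 to 852 at 2 h, 1630 to 2533 at 6 h, 341 to 493 at 1 day, 137 to 499 at 1 week, 645 to 1329, 284 to 804 and 340 to 847 for the changes between times, 1611 to 2366 for the F test and 1918 to 2406 for the sham F test. Shifts over 1.5 times came at 1 week without sham library 4 (137) or 5 (225) or irradiated library 1 (165), 4 (226), 5 (158) or 6 (206), from 6 h to 1 day without sham 6 h library 1 (284), 4 (293), 5 (804) or 6 (800), and from 1 day to 1 week without sham 1 day library 6 (847), irradiated 1 day library 2 (347) or 3 (362) or sham 1 week library 4 (340). Of the 9 genes 0, 2 to 4, 3 to 4 and 0 to 1 were called at the 4 times, 1 to 3, 5 to 6 and 4 for the changes, 6 to 7 for the F test and 5 for the sham F test. Same-numbered sham and irradiated libraries correlated at over 0.1 in 2 of 6 pairs at 2 h and in 0 at the other times, so pairing was not established; at 2 h 4 of 6 sham libraries, and at each other time 1 of 6, correlated best with their own number. The replicate block added Ddit3 at 6 h and Hspa5 at 1 day and left 0 of the 9 called at 1 week. The block could not be fitted for the sham test. Low depth limits Asns (0 to 19 reads). Psat1 had 3 to 278 reads per library, and at least 10 in 46 of the 48 libraries. Its RPKM was low over a span of 42660 bases, introns included.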
